A study of Saccharomyces cerevisiae with 16 samples.

Results

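The genes described here encode mitochondrial enzymes of the tricarboxylic acid (TCA) cycle and the nuclear-coded subunits of the respiratory chain and ATP synthase of budding yeast, Saccharomyces cerevisiae. They are 47 of the 6174 features of the arrays and were chosen by gene name and function. The TCA cycle is represented by 9 enzyme genes, which do not cover every step. The chain is represented by 4 genes of complex II, 3 NADH dehydrogenases, 9 genes of complex III, 2 cytochrome c genes, 9 genes of complex IV and 11 of ATP synthase.

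The TCA cycle oxidises acetyl-CoA in the mitochondrial matrix and passes electrons on as NADH and, through succinate dehydrogenase, directly to ubiquinone. Budding yeast has no proton-pumping complex I. NADH is oxidised instead by Ndi1 on the matrix side and by Nde1 and Nde2 on the outer side of the inner membrane, and electrons then pass through complex III, cytochrome c and complex IV to oxygen, while ATP synthase uses the proton gradient. Yeast growing on glucose ferments most of it, and many of these genes are held low by glucose and activated by the Hap2/3/4/5 complex when glucose runs out.

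Each array compared RNA of cells given 20 mM KOH, which makes the medium alkaline, with RNA of a control culture of that strain, which received 20 mM KCl for as long. Both treatments were applied to exponential cultures in YPD, a rich glucose medium, for 10 or 30 min. The wild type was W303-1A, and the mutant was MCY5278, a derivative of that strain with the genotype msn2::kanMX4 msn4::hphMX4. It lacks Msn2 and Msn4, a pair of related transcription factors that activate stress genes. The 4 groups of 4 arrays are thus wild type and mutant at each time, and arrays 1 and 4 of every group carried the KOH RNA in Cy3 while arrays 2 and 3 carried it in Cy5. Values are log ratios of KOH over KCl, read as log2 and centred on each array's median. A positive value is more RNA in KOH, a reading that is likely rather than stated, and every fold size depends on that base. The ratio sets RNA pools against each other, so fewer cells expressing a gene and less of its RNA per cell cannot be told apart. It also compares a strain with itself and shows no difference in level between strains.

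Arrays differed in how many features they measured, from 33.6% to 88.2% of the 6174, and they held values for 20 to 46 of the 47 genes. On all 16 arrays 20 of the genes had a value. A gene was tested in a group where at least 3 arrays in both dyes had a value: 25 genes were tested in all 4 groups, and QCR2, CYC1, COX7, COX9 and ATP15 in none. Correlations across genes between arrays of a group, which are not independent points, ran from 0.542 to 0.865. The labels give 2 biological replicates per condition with dye swaps but not which arrays share an extract, so each array was counted as a sample, which makes every p-value too small. MSN2 had values on all 8 mutant arrays and MSN4 on 5, although both are deleted there, so the arrays do not check the labels of the mutant. Their ratios passed the test in no group, with MSN2 between -0.27 ± 0.14 and -0.06 ± 0.14. Of the markers of MATa cells at most 3 were tested in a group, of MATalpha cells at most 2 and of sporulating diploids at most 2. Those that passed were STE6 (-0.79 ± 0.16) in wild type at 30 min, BAR1 (0.76 ± 0.17) in the mutant at 30 min, SPS1 (0.95 ± 0.30) in the mutant at 10 min and SPS4, lower in 3 groups by -0.94 to -0.45.

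At 10 min in wild type, 10 of the 25 genes tested were higher in KOH and 2 were lower, which is 40% and 8% of them. Of all 2670 genes tested there, 21.8% were higher and 20.9% lower. The median of the 25 was 0.28 against -0.04 over all genes. The threshold was an adjusted p of 0.05 in limma, with Benjamini-Hochberg adjustment over all genes tested. At 10 min in the mutant, 6 of 29 were higher and 1 was lower, beside 18.6% higher and 17.9% lower of all genes, with medians of 0.17 and 0.01. The higher share of the mutant, 20.7%, was thus near that of all its genes. At 30 min, where more genes could be tested, the balance differed. In wild type 5 of 40 were higher and 7 lower, or 12.5% and 17.5%, beside 19.2% and 18.8% of all genes. The median was 0.01 against 0.02. Centring on the genes measured on every array turned that split to 7 higher and 6 lower. In the mutant at 30 min, 5 of 39 were higher and 8 lower, or 12.8% and 20.5%, beside 22% and 19.1% of all genes. The median was -0.24 against 0.02. In both strains the lower share at 30 min was thus near that of all genes. When arrays of opposite dye were averaged in each of the 16 possible ways, the number of genes that passed ran from 7 to 14 in wild type and 2 to 6 in the mutant at 10 min. At 30 min it ran from 8 to 15 and from 3 to 13. The calls that passed in fewer than 8 of the 16 were CYT1 (3), KGD2 (6) and SDH3 (6) in wild type at 10 min, MDH1 (4) in wild type at 30 min, COX4 (7) in the mutant at 30 min and COR1 (5) between the times in the mutant. Calls that rest on 3 arrays could not be recomputed in this way. Without array 4 of the mutant at 10 min, 3 genes passed there, of 20 that could still be tested.

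**Figure D1:**
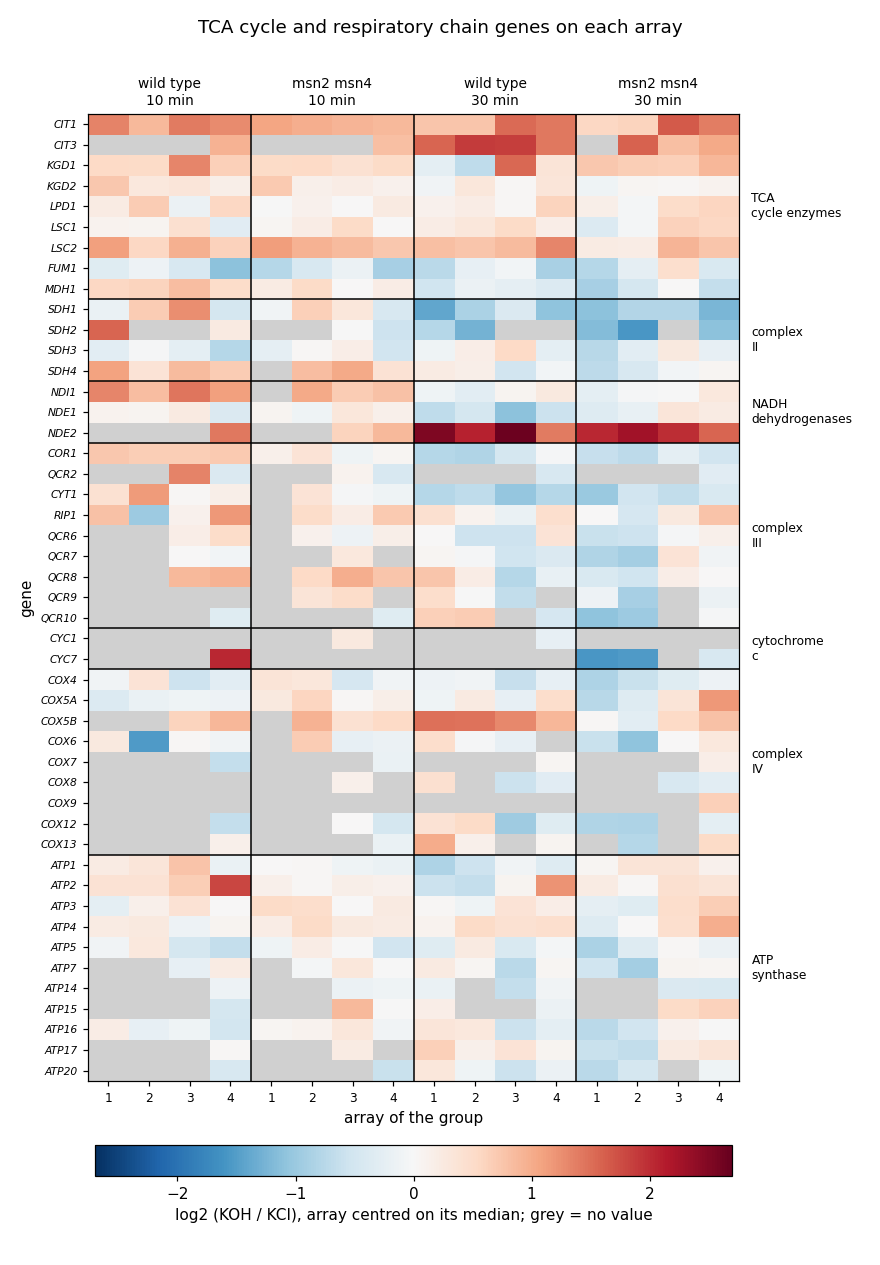
Log2 ratio of KOH over KCl (colour, red higher and blue lower in KOH) of the 47 genes, in rows by complex, on each of the 16 arrays, in columns by group, with grey where an array had no value. CIT1 and LSC2 are red in all 4 groups and NDE2 is red at 30 min, while SDH1, COR1 and CYT1 are blue at 30 min.

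**Figure D2:**
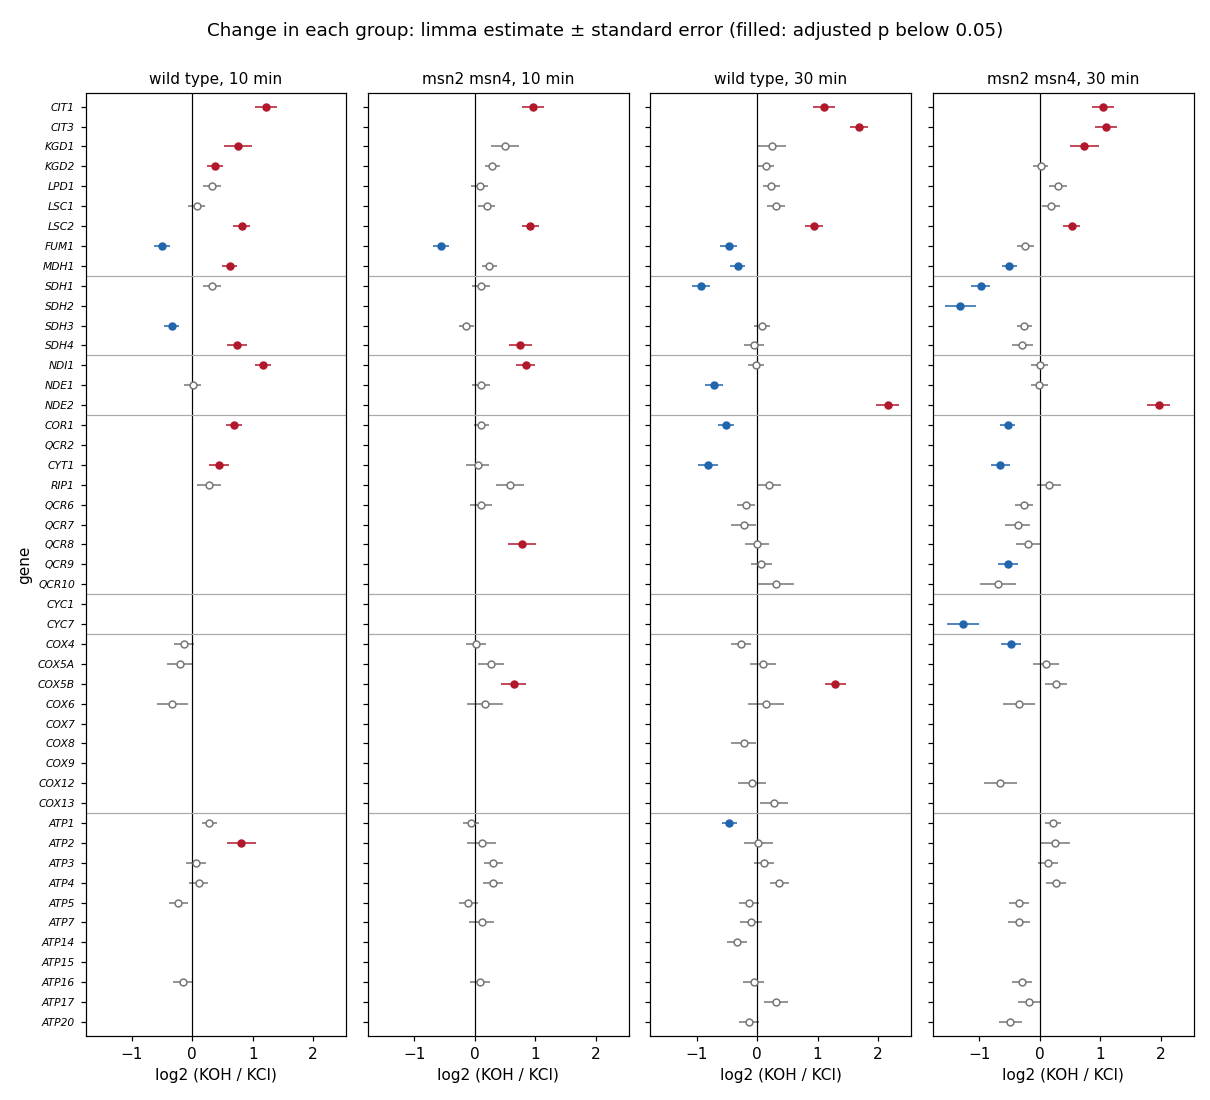
Estimated log2 change in KOH (horizontal axis) of each tested gene (vertical axis, by complex) in the 4 groups, with bars of 1 standard error and filled points where the adjusted p was below 0.05. In wild type at 10 min 10 filled points lie above 0 and 2 below, and at 30 min 5 lie above and 7 below.

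Within the TCA cycle, the citrate synthase gene CIT1 and the succinyl-CoA ligase gene LSC2 were higher in KOH in both strains at both times, fumarase was lower in 3 groups, and malate dehydrogenase went from higher to lower in wild type. CIT1 (YNR001C) encodes the mitochondrial citrate synthase that starts the cycle. In wild type at 10 min its arrays read 1.34, 0.88, 1.40 and 1.27, and in the mutant 1.07, 0.99, 0.91 and 0.88. After 30 min they read 0.75, 0.74, 1.54 and 1.41 in wild type and 0.55, 0.60, 1.65 and 1.39 in the mutant. All 16 values lay above 0, and at 30 min arrays 1 and 2 of each strain stood below arrays 3 and 4. The change was 1.22 ± 0.18, or 2.33-fold, in wild type at 10 min (limma adjusted p = 3.24e-05), 0.96 ± 0.18 in the mutant (adjusted p = 0.000468), and 1.11 ± 0.18 (adjusted p = 0.000134) and 1.05 ± 0.18 (adjusted p = 0.000324) at 30 min.

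CIT3 (YPR001W) encodes another mitochondrial citrate synthase, which also makes methylcitrate. At 10 min only array 4 of each strain held a value, 0.93 and 0.81. At 30 min wild type read 1.57, 1.88, 1.88 and 1.42, and the mutant 1.60, 0.80 and 1.03 on arrays 2 to 4. The change was 1.69 ± 0.15, or 3.22-fold, in wild type (limma adjusted p = 1.41e-05) and 1.09 ± 0.18 in the mutant (adjusted p = 0.00136, n = 3). CIT2, the peroxisomal paralog of both, rose by 2.96 ± 0.14, 3.37 ± 0.14, 3.54 ± 0.14 and 3.37 ± 0.14 in wild type and mutant at 10 min and at 30 min. Whether the probes separate the 3 paralogs was not tested.

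LSC2 (YGR244C) encodes the beta subunit of succinyl-CoA ligase, the step of the cycle that makes ATP directly. Its arrays read 1.11, 0.57, 0.96 and 0.63 in wild type and 1.12, 0.95, 0.86 and 0.74 in the mutant at 10 min. The 30 min arrays read 0.82, 0.75, 0.85 and 1.32 in wild type and 0.23, 0.21, 0.93 and 0.75 in the mutant. All 16 were above 0, and only the mutant at 30 min held values under 0.5, on arrays 1 and 2. LSC2 changed by 0.82 ± 0.14 and 0.92 ± 0.14 at 10 min and by 0.94 ± 0.15 in wild type at 30 min (limma adjusted p from 8.02e-05 to 0.000191). Its change in the mutant at 30 min was 0.53 ± 0.15 (adjusted p = 0.00923), and without array 3 there by 0.37 (adjusted p = 0.0811). LSC1 (YOR142W), the alpha subunit of the same enzyme, had changes between 0.07 ± 0.15 and 0.31 ± 0.15 and passed in no group. The ligase's subunit genes thus differed in outcome, although the difference between them was not tested.

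The alpha-ketoglutarate dehydrogenase complex is encoded by KGD1 (YIL125W), its dehydrogenase component, KGD2 (YDR148C), its succinyltransferase component, and LPD1 (YFL018C), the lipoamide dehydrogenase it shares with pyruvate dehydrogenase. KGD1 read 0.54, 0.52, 1.32 and 0.63 in wild type at 10 min and 0.74, 0.67, 0.65 and 0.90 in the mutant at 30 min, all above 0. Its change was 0.75 ± 0.24 (limma adjusted p = 0.0164) and 0.74 ± 0.24 (adjusted p = 0.0232) in these 2 groups. Without array 3 of wild type at 10 min it was 0.57 (adjusted p = 0.115). Without array 1 or array 4 of the mutant at 30 min it was 0.72 (adjusted p = 0.0648) or 0.66 (adjusted p = 0.0813). The mutant at 10 min stood at 0.50 ± 0.24 (adjusted p = 0.108), and wild type at 30 min spread from -0.68 to 1.56 around 0.24 ± 0.24. KGD2 rose by 0.37 ± 0.13 in wild type at 10 min (limma adjusted p = 0.0256), a call lost without array 1 (0.26, adjusted p = 0.156) or array 3 (0.38, adjusted p = 0.0664). LPD1 lay between 0.08 ± 0.14 and 0.33 ± 0.14 and passed in no group, although without array 3 of wild type at 10 min it stood at 0.48 there (adjusted p = 0.025).

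FUM1 (YPL262W) encodes fumarase. Its arrays read -0.33, -0.13, -0.44 and -1.12 in wild type and -0.77, -0.42, -0.16 and -0.89 in the mutant at 10 min. Every value was below 0, and in both strains array 4 was the lowest. At 30 min wild type read -0.73, -0.22, -0.08 and -0.87, again all below 0, while array 3 of the mutant, 0.46, stood above 0. FUM1 fell by 0.50 ± 0.14 in wild type and 0.56 ± 0.14 in the mutant at 10 min (limma adjusted p = 0.0074 and 0.00467), and by 0.47 ± 0.14 in wild type at 30 min (adjusted p = 0.0142). The mutant at 30 min stood at -0.24 ± 0.14. For wild type the call was lost at 10 min without array 3 (-0.42, adjusted p = 0.0545) or array 4 (-0.39, adjusted p = 0.0695), and at 30 min without array 4 (-0.44, adjusted p = 0.064).

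MDH1 (YKL085W) encodes the mitochondrial malate dehydrogenase. Wild type read 0.55, 0.60, 0.83 and 0.49 at 10 min and -0.54, -0.15, -0.23 and -0.37 at 30 min, so the times did not overlap and had opposite signs. The mutant read 0.23, 0.52, 0.01 and 0.20 at 10 min and -0.90, -0.47, 0 and -0.64 at 30 min, again without overlap. MDH1 rose by 0.62 ± 0.12 in wild type at 10 min (limma adjusted p = 0.000501) and stood at 0.24 ± 0.12 in the mutant. After 30 min it was lower by -0.50 ± 0.12 in the mutant (adjusted p = 0.004) and by -0.32 ± 0.12 in wild type (adjusted p = 0.0478). The wild type call at 30 min held in 8 of 26 alternatives, with values from -0.36 to -0.25, and leaving out an array of any group could end it.

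Complex II, succinate dehydrogenase, links the cycle to the chain. Its flavoprotein gene SDH1 (YKL148C) was lower in KOH at 30 min in both strains, and its membrane anchor gene SDH4 (YDR178W) was higher at 10 min in both. SDH1 read -0.18, 0.69, 1.26 and -0.47 in wild type and -0.09, 0.65, 0.30 and -0.44 in the mutant at 10 min. In both strains arrays 2 and 3, with KOH in Cy5, were above 0 and arrays 1 and 4 were below. The changes of 0.33 ± 0.15 and 0.11 ± 0.15 did not pass, and without array 4 of wild type the value was 0.47 (limma adjusted p = 0.0324). At 30 min SDH1 read -1.41, -0.85, -0.39 and -1.09 in wild type and -1.12, -0.78, -0.78 and -1.24 in the mutant. All 8 values were below 0. It fell by 0.94 ± 0.15 in wild type (limma adjusted p = 0.000104) and 0.98 ± 0.15 in the mutant (adjusted p = 8.39e-05), or 1.91-fold and 1.97-fold.

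SDH2 (YLL041C), the iron-sulphur subunit of complex II, had few values. In the mutant at 30 min its arrays read -1.17, -1.58 and -1.11, and the change was -1.31 ± 0.26 (limma adjusted p = 0.00351, n = 3). In the other groups arrays 1 and 4 of wild type at 10 min read 1.56 and 0.23, arrays 3 and 4 of the mutant at 10 min read -0.01 and -0.55, and arrays 1 and 2 of wild type at 30 min read -0.77 and -1.27. All 5 values at 30 min were thus negative, and the 4 at 10 min held both signs.

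SDH3 (YKL141W) and SDH4 anchor complex II in the membrane. SDH4 read 1.08, 0.37, 0.86 and 0.68 in wild type at 10 min and 0.83, 1.02 and 0.39 on arrays 2 to 4 of the mutant, all above 0. The 30 min arrays read 0.22, 0.15, -0.53 and -0.07 in wild type and -0.71, -0.43, -0.07 and 0.05 in the mutant, around 0. SDH4 rose by 0.75 ± 0.17 (limma adjusted p = 0.00161) and 0.75 ± 0.19 (adjusted p = 0.0062, n = 3) at 10 min, and stood at -0.06 ± 0.17 and -0.29 ± 0.17 at 30 min. Without array 3 of the mutant at 10 min its change there was 0.61 (adjusted p = 0.0611). SDH3 read -0.29, -0.04, -0.26 and -0.77 in wild type at 10 min, all below 0. It was lower by -0.34 ± 0.13 (limma adjusted p = 0.0408), a call that held in 14 of 26 alternatives, with values from -0.44 to -0.24, and that leaving out array 2, 3 or 4 of the group, or array 2 or 3 of the mutant at 10 min, ended. SDH3 stood between -0.25 ± 0.13 and 0.08 ± 0.13 in the other groups.

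The NADH dehydrogenases, which stand in for complex I, showed 3 different courses. NDI1 (YML120C), the matrix-side enzyme, read 1.33, 0.84, 1.45 and 1.10 in wild type at 10 min and 1.02, 0.68 and 0.79 on arrays 2 to 4 of the mutant. Values at 30 min were -0.12, -0.29, 0.07 and 0.27 in wild type and -0.26, -0.02, -0.01 and 0.29 in the mutant. The lowest value at 10 min, 0.68, was above the highest at 30 min, 0.29. NDI1 rose by 1.18 ± 0.13, or 2.26-fold, in wild type (limma adjusted p = 2.89e-06) and by 0.85 ± 0.16 in the mutant (adjusted p = 0.00047, n = 3) at 10 min, and stood at -0.02 ± 0.14 and -0.00 ± 0.14 at 30 min.

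NDE1 (YMR145C) and NDE2 (YDL085W) encode the outward-facing enzymes, which oxidise cytosolic NADH. NDE2 read 2.53, 2.07, 2.64 and 1.40 in wild type and 2.04, 2.26, 2.00 and 1.58 in the mutant at 30 min. All 8 values were well above 0, and array 4 was the lowest in each strain. The change was 2.16 ± 0.19, or 4.47-fold, in wild type (limma adjusted p = 2.48e-06) and 1.97 ± 0.19, or 3.91-fold, in the mutant (adjusted p = 1.05e-05). No other gene of the 47 had a larger estimated change in either group. At 10 min NDE2 had a value of 1.43 on array 4 of wild type and values of 0.59 and 0.88 on arrays 3 and 4 of the mutant, and was not tested.

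NDE1 read 0.10, 0.07, 0.24 and -0.39 in wild type and 0.08, -0.12, 0.31 and 0.14 in the mutant at 10 min, around 0. The 30 min arrays read -0.69, -0.48, -1.11 and -0.57 in wild type and -0.36, -0.21, 0.33 and 0.22 in the mutant. The strains did not overlap at 30 min, where every wild type value lay below every mutant value. NDE1 fell by 0.71 ± 0.15 in wild type (limma adjusted p = 0.00102) and stood at -0.01 ± 0.15 in the mutant. Its values at 10 min were 0.01 ± 0.14 and 0.10 ± 0.14. NDE1 and NDE2 thus had opposite calls in wild type at 30 min.

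**Figure D3:**
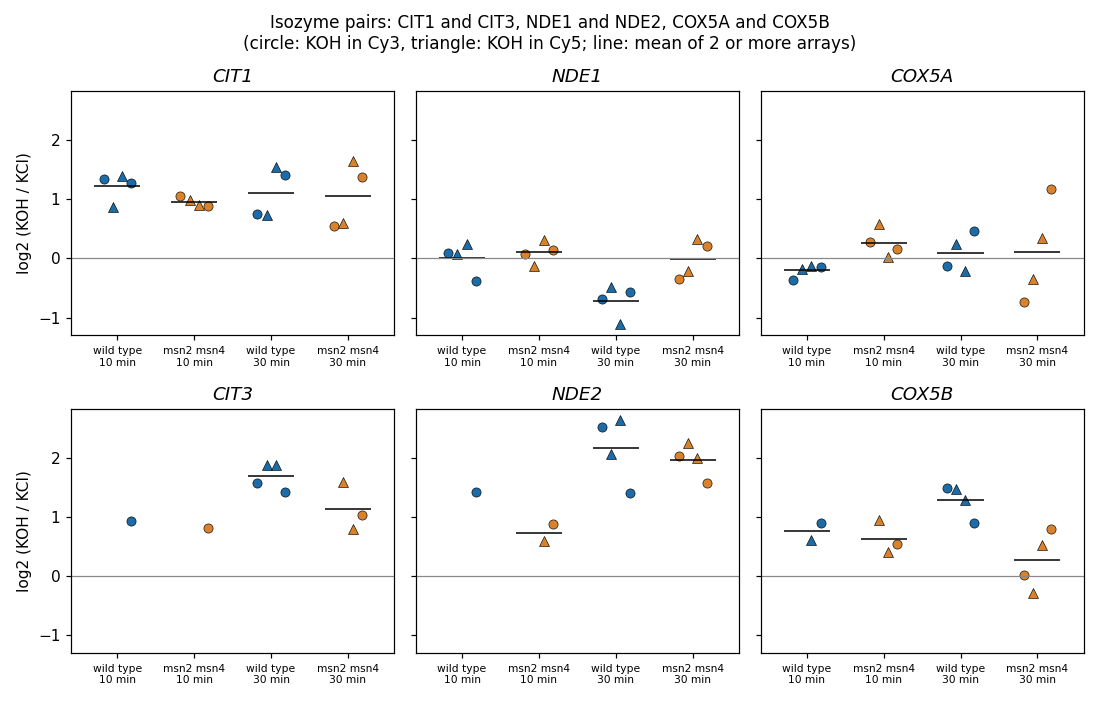
Log2 ratio of KOH over KCl (vertical axis) on each array of the 4 groups (horizontal axis) for the isozyme pairs CIT1 and CIT3, NDE1 and NDE2, and COX5A and COX5B, with circles for KOH in Cy3, triangles for KOH in Cy5 and a line at the mean of 2 or more arrays. NDE2 lies between 1.40 and 2.64 at 30 min, and COX5B lies between 0.90 and 1.49 in wild type and between -0.28 and 0.79 in the mutant at that time.

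Complex III, the cytochrome bc1 complex, passes electrons from ubiquinol to cytochrome c. Its core gene COR1 (YBL045C) and its cytochrome c1 gene CYT1 (YOR065W) were higher in wild type at 10 min and lower in both strains at 30 min, although CYT1 at 10 min passed in 3 of the 16 averagings of opposite dyes. COR1 read 0.72, 0.67, 0.66 and 0.70 in wild type at 10 min, a narrow range, and 0.13, 0.38, -0.13 and 0.06 in the mutant, all lower than every wild type value. After 30 min it read -0.76, -0.81, -0.48 and -0.04 in wild type and -0.63, -0.71, -0.27 and -0.52 in the mutant. All 8 of these were below 0. COR1 rose by 0.69 ± 0.13 in wild type at 10 min (limma adjusted p = 0.000386) and stood at 0.11 ± 0.13 in the mutant. At 30 min it fell by 0.52 ± 0.13 (adjusted p = 0.00522) and 0.53 ± 0.13 (adjusted p = 0.00468).

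CYT1 read 0.41, 1.16, 0.04 and 0.16 in wild type at 10 min and 0.36, -0.04 and -0.12 on arrays 2 to 4 of the mutant. At 30 min it read -0.77, -0.69, -1.05 and -0.77 in wild type and -1.01, -0.52, -0.67 and -0.41 in the mutant, all below 0 and below every value at 10 min. CYT1 changed by 0.44 ± 0.16 in wild type at 10 min (limma adjusted p = 0.0353), by 0.20 without array 2 (adjusted p = 0.293) and by 0.43 without array 1 (adjusted p = 0.0912). It stood at 0.05 ± 0.19 in the mutant at 10 min. At 30 min it fell by 0.82 ± 0.16 in wild type (adjusted p = 0.00088) and by 0.65 ± 0.16 in the mutant (adjusted p = 0.00565).

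The other genes of complex III had fewer values, and 2 of them passed in a group. QCR8 (YJL166W), a small subunit that touches cytochrome b, read 0.53, 0.99 and 0.74 on arrays 2 to 4 of the mutant at 10 min, where it rose by 0.78 ± 0.23 (limma adjusted p = 0.0156, n = 3). Without array 3 there it was 0.64 (adjusted p = 0.0992). In wild type at 10 min QCR8 had 0.87 and 0.94 on arrays 3 and 4 and was not tested, and at 30 min it stood at -0.01 ± 0.20 and -0.19 ± 0.20. QCR9 (YGR183C), another small subunit, read -0.13, -0.89 and -0.15 in the mutant at 30 min. It was lower by -0.52 ± 0.17 (limma adjusted p = 0.0348, n = 3), held in 15 of 24 alternatives with values from -0.57 to -0.39, and was lost among others without array 1 (-0.52, adjusted p = 0.0879) or array 4 (-0.51, adjusted p = 0.085) of the group. Its call was also lost without array 1 of wild type at 30 min (-0.51, adjusted p = 0.0584) or array 3 of the mutant at 10 min (-0.52, adjusted p = 0.0508).

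RIP1 (YEL024W), the Rieske iron-sulphur protein, ran from -0.98 to 1.17 on the arrays of wild type at 10 min around 0.27 ± 0.20. The array at -0.98 was array 2, and without it the value was 0.60 (limma adjusted p = 0.0105). RIP1 stood at 0.58 ± 0.23 in the mutant at 10 min and passed in 8 of 23 alternatives. QCR6, QCR7 and QCR10 passed in no group, with changes from -0.69 ± 0.30 for QCR10 in the mutant at 30 min to 0.31 ± 0.29 for QCR10 in wild type. In the former group QCR7 stood at -0.64 without array 3 (limma adjusted p = 0.0267) and QCR10 at -1.04 without array 4 (adjusted p = 0.0222). Estimates at 30 min were negative for 7 of the 8 complex III genes tested in the mutant and 5 of 8 in wild type. Over all genes tested they were negative for 2059 of 4234 in the mutant and 2088 of 4288 in wild type. Arrays 1 and 2 of the mutant at 30 min ran below arrays 3 and 4, as given further on. QCR2, the other core subunit, had values of 1.33 and -0.40 on arrays 3 and 4 of wild type at 10 min, 0.10 and -0.43 on the same arrays of the mutant, and 1 value per strain at 30 min, -0.43 and -0.31.

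Cytochrome c, the mobile carrier between complexes III and IV, is encoded by CYC1 (YJR048W), the main form in air, and CYC7 (YEL039C), the form that predominates at low oxygen. CYC1 had 2 values in all, 0.26 on array 3 of the mutant at 10 min and -0.23 on array 4 of wild type at 30 min. CYC7 read -1.57, -1.53 and -0.44 on arrays 1, 2 and 4 of the mutant at 30 min, and was lower by -1.27 ± 0.27 (limma adjusted p = 0.0114, n = 3). Its remaining value, on array 4 of wild type at 10 min, was 2.03. The 2 strains therefore have no CYC7 value at a shared time.

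In complex IV, cytochrome c oxidase, the changes that passed were those of COX5B and, in the mutant at 30 min, COX4 (YGL187C). COX5A (YNL052W) and COX5B (YIL111W) encode alternative forms of the same subunit, used in air and at low oxygen. COX5B read 1.49, 1.47, 1.29 and 0.90 in wild type at 30 min and 0.03, -0.28, 0.54 and 0.79 in the mutant, so every wild type array stood above every mutant array. At 10 min it read 0.61 and 0.90 on arrays 3 and 4 of wild type and 0.95, 0.41 and 0.55 on arrays 2 to 4 of the mutant. COX5B rose by 1.29 ± 0.18, or 2.44-fold, in wild type at 30 min (limma adjusted p = 5.11e-05) and by 0.64 ± 0.20 in the mutant at 10 min (adjusted p = 0.0229, n = 3). Without array 2 of that group it was 0.48 (adjusted p = 0.166). It stood at 0.27 ± 0.18 in the mutant at 30 min.

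COX5A read -0.36, -0.18, -0.12 and -0.15 in wild type and 0.27, 0.59, 0.03 and 0.16 in the mutant at 10 min, all below and all above 0. After 30 min it spread from -0.21 to 0.47 in wild type and from -0.74 to 1.17 in the mutant. Its changes, between -0.20 ± 0.22 and 0.26 ± 0.22, passed in no group. COX4 read -0.84, -0.60, -0.33 and -0.15 in the mutant at 30 min, all below 0. It was lower by -0.48 ± 0.17 (limma adjusted p = 0.0314), but by -0.34 without array 1 (adjusted p = 0.172) and -0.45 without array 2 (adjusted p = 0.084). COX6, COX8, COX12 and COX13 passed in no group where they were tested, with changes from -0.65 ± 0.28 for COX12 in the mutant at 30 min to 0.28 ± 0.24 for COX13 in wild type at 30 min. COX7 had a value on array 4 of each group, from -0.64 to 0.17, and COX9 had 1 value, 0.65, on array 4 of the mutant at 30 min.

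ATP synthase genes had the fewest calls for their number. Of the 11 genes, 6, 7, 10 and 9 were tested in wild type and mutant at 10 min and at 30 min, and 1, 0, 1 and 0 passed. The call at 10 min was higher, or 16.7% of those tested, and the call at 30 min lower, or 10%. Of all genes, 18.6% to 22% were higher and 17.9% to 20.9% lower in the 4 groups. ATP1 (YBL099W) and ATP2 (YJR121W) encode the alpha and beta subunits of the catalytic head. ATP2 read 0.39, 0.39, 0.66 and 1.80 in wild type at 10 min and rose by 0.81 ± 0.24 (limma adjusted p = 0.0104). Array 4 stood far above the rest, and without it the value was 0.51 (adjusted p = 0.126). In the mutant at 10 min ATP2 read 0.14, 0.03, 0.15 and 0.13, all below every wild type array, with a change of 0.11 ± 0.24. In wild type at 30 min it read -0.57, -0.64, 0.08 and 1.20, with array 4 again the highest.

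ATP1 read 0.23, 0.32, 0.77 and -0.19 in wild type and 0.01, 0.02, -0.12 and -0.17 in the mutant at 10 min, and its changes of 0.28 ± 0.13 and -0.06 ± 0.13 did not pass. Without array 4 of wild type at 10 min the value there was 0.41 (limma adjusted p = 0.0348). At 30 min ATP1 read -0.83, -0.56, -0.10 and -0.35 in wild type and 0.06, 0.35, 0.34 and 0.12 in the mutant, so that every wild type array was below 0 and every mutant array above it. It was lower by -0.46 ± 0.13 in wild type (limma adjusted p = 0.0102), a call lost without array 1 (-0.38, adjusted p = 0.0683) or array 2 (-0.38, adjusted p = 0.0676), and stood at 0.22 ± 0.13 in the mutant. The other ATP synthase genes tested, among them ATP3, ATP4, ATP5, ATP7 and ATP16, had estimates from -0.48 ± 0.19 for ATP20 in the mutant at 30 min to 0.37 ± 0.16 for ATP4 in wild type at 30 min, and none of them passed. Without 1 array of the mutant at 30 min, ATP7 stood at -0.53 (array 3, limma adjusted p = 0.0477) and ATP4 at 0.48 (array 1, adjusted p = 0.0338). ATP15 had 6 values, from -0.47 to 0.87.

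The ratios at 30 min were compared with those at 10 min within each strain, which asks whether the response kept, lost or gained size. Each time has its own KCl control. In wild type 8 of 25 genes had a lower ratio at 30 min and 0 a higher one, beside 13.1% and 6.83% of all genes tested. The median difference was -0.11 against -0.01 over all genes. In the mutant 6 of 29 were lower and 0 higher, beside 10.1% and 6.07% of all genes, with medians of -0.37 and -0.06. At an unadjusted p under 0.05 the counts in both directions together were 10 and 8, or 40% and 27.6%, beside 34.2% and 27.9% of all genes. With opposite-dye arrays averaged, 4 to 10 genes passed in wild type and 1 to 4 in the mutant. Without array 4 of the mutant at 10 min, 3 genes passed in the mutant.

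The genes whose ratio fell between the times were those for MDH1, SDH1, SDH4, NDI1 and COR1 in both strains, NDE1, CYT1 and ATP1 in wild type, and QCR8 in the mutant. Except for ATP1 of ATP synthase, they belong to the cycle, to the enzymes that feed the quinone pool and to complex III. Of the 9 complex IV genes only 3 in wild type and 4 in the mutant could be tested, and 0 cytochrome c genes. In the mutant all 4 complex IV estimates (median -0.44) and 5 of 7 of ATP synthase were negative, and in wild type 1 of 3 and 2 of 6. Over all genes tested, 1641 of 2934 estimates were negative in the mutant and 1320 of 2607 in wild type. The wild type medians were 0.30 for complex IV and 0.075 for ATP synthase, beside -1.21 for complex III. These medians rest on few genes, and whether the complexes differ was not tested. The largest differences in wild type were those of CYT1, -1.26 ± 0.23 (limma adjusted p = 0.000903), SDH1, -1.26 ± 0.21 (adjusted p = 0.000406), COR1, -1.21 ± 0.19 (adjusted p = 0.000208), and NDI1, -1.19 ± 0.19 (adjusted p = 0.000341). MDH1 fell by 0.94 ± 0.17 (adjusted p = 0.000911), SDH4 by 0.80 ± 0.23 (adjusted p = 0.0217), ATP1 by 0.74 ± 0.18 (adjusted p = 0.00757) and NDE1 by 0.72 ± 0.20 (adjusted p = 0.0184). In the mutant the differences were -1.09 ± 0.21 for SDH1 (limma adjusted p = 0.00116), -1.04 ± 0.25 for SDH4 (adjusted p = 0.00828), -0.98 ± 0.30 for QCR8 (adjusted p = 0.0359), -0.85 ± 0.21 for NDI1 (adjusted p = 0.00838), -0.74 ± 0.17 for MDH1 (adjusted p = 0.00549) and -0.64 ± 0.19 for COR1 (adjusted p = 0.023). CYT1 stood at -0.69 ± 0.25 in the mutant without passing, and at -0.80 (adjusted p = 0.0461) without array 4 of the mutant at 30 min or -0.72 (adjusted p = 0.0234) without array 2 of wild type at 10 min.

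Some of these calls rested on single arrays. That of SDH4 in wild type was lost without array 1 (-0.68, limma adjusted p = 0.0709) or array 3 (-0.76, adjusted p = 0.0547) of the 10 min group or array 3 of the 30 min group (-0.64, adjusted p = 0.0692). That of NDE1 was lost without array 3 at 10 min (-0.64, adjusted p = 0.0562) or array 3 at 30 min (-0.56, adjusted p = 0.0636). In the mutant that of COR1 was lost without array 2 at 10 min (-0.54, adjusted p = 0.0915) or array 1 (-0.60, adjusted p = 0.0599) or 2 (-0.58, adjusted p = 0.0638) at 30 min. QCR8 lost its call without array 2 or 3 at 10 min or array 1, 2 or 4 at 30 min, with values from -1.06 to -0.83. KGD1 in wild type reached -0.97 (adjusted p = 0.00885) without array 3 of the 30 min group, and ATP2 -1.17 (adjusted p = 0.0105) without array 4. Arrays were also grouped into slide series by the leading digits of their titles, which the labels do not explain. ATP2 also passed with the slide series as a term (-0.79, adjusted p = 0.0456) and on the larger slide series alone (-0.86, adjusted p = 0.0228).

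Of the 10 genes that were higher in wild type at 10 min, 5 had a lower ratio by the test at 30 min, beside 38% of the 555 genes of any kind that were higher at 10 min and tested in this comparison. The same 10 min arrays enter both tests. MDH1, COR1 and CYT1 were then lower in KOH than in KCl, which is 30% of the 10 genes, beside 4.32% of the 555. This share rests on 3 genes. In the 16 averagings of opposite dyes, CYT1 passed as higher at 10 min in 3 and MDH1 as lower at 30 min in 4. COR1 passed in 16 at 10 min and in 12 at 30 min. CIT1 and LSC2 were higher at both times, or 20%, beside 50.8%. In the mutant 3 of the 6 genes higher at 10 min had a lower ratio at 30 min, beside 20.9% of 545, and again CIT1 and LSC2 were higher at both times, or 33.3%, beside 59.6%. The time differences were -0.11 ± 0.25 for CIT1 and 0.12 ± 0.20 for LSC2 in wild type, and 0.09 ± 0.25 and -0.39 ± 0.20 in the mutant, none of which passed. The 95% confidence interval for CIT1 in wild type ran from -0.64 to 0.42. CIT3 and NDE2, the 2 genes with the largest changes in wild type at 30 min, could not be compared between the times because too few arrays held them at 10 min.

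**Figure D4:**
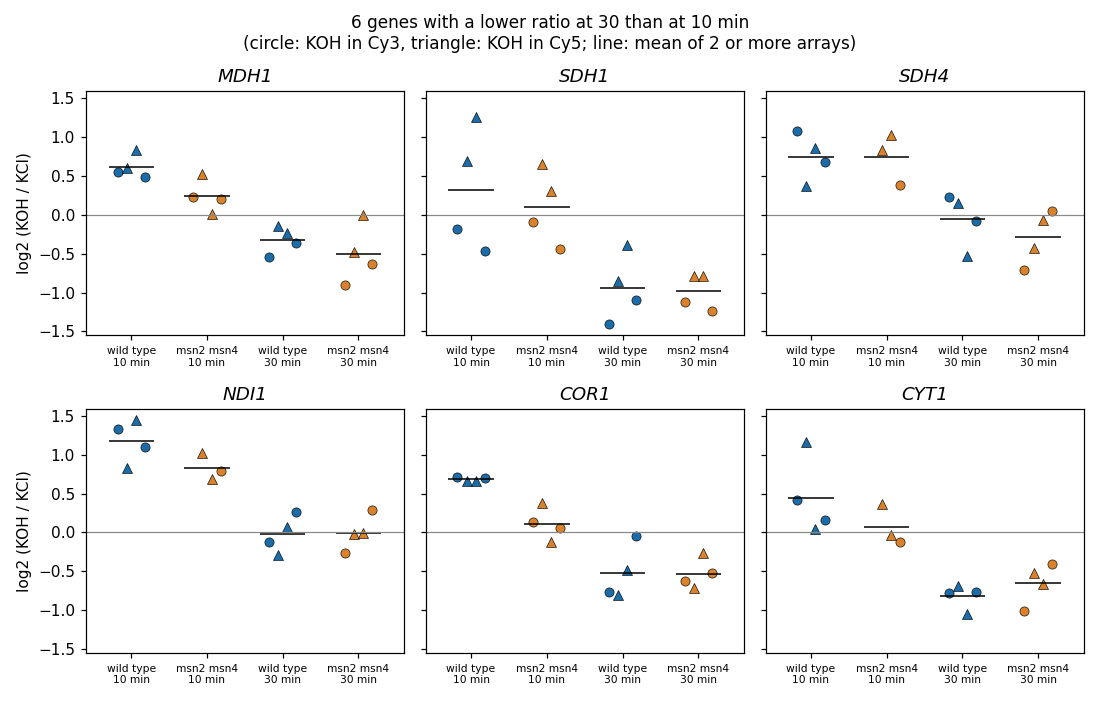
Log2 ratio of KOH over KCl (vertical axis) on each array of the 4 groups (horizontal axis) for MDH1, SDH1, SDH4, NDI1, COR1 and CYT1, with circles for KOH in Cy3, triangles for KOH in Cy5 and a line at the mean. In wild type every value at 10 min lies above every value at 30 min except for SDH1, whose lowest value at 10 min is -0.47 and highest at 30 min -0.39.

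The mutant was compared with wild type at each time, which asks whether the response needed Msn2 and Msn4. No gene of the 25 tested at 10 min or the 37 tested at 30 min passed in limma, while 3 and 6 had an unadjusted p under 0.05, or 12% and 16.2%, beside 10.6% and 20.3% of all genes. Over all genes 0.0847% passed upward and 0.889% downward at 10 min, and 0.729% and 0.277% at 30 min, so few genes of any kind passed. The medians were 0.01 and -0.14 against 0.06 and -0.05 over all genes. With opposite-dye arrays averaged, 0 to 1 and 0 to 3 genes passed. Without array 3 of wild type at 30 min 3 genes passed at 30 min, KGD1 (0.96, limma adjusted p = 0.0312), COX5B (-1.01, adjusted p = 0.0452) and ATP1 (0.76, adjusted p = 0.0343). Without array 4 of wild type or array 4 of the mutant at 30 min COX5B alone passed, at -1.18 (adjusted p = 0.0427) or -1.21 (adjusted p = 0.045). These p-values miss the threshold in most settings and do not show that the strains act alike.

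The differences nearest the threshold were at 30 min. COX5B was lower in the mutant, by -1.02 ± 0.25, with a 95% confidence interval from -1.55 to -0.49 and an adjusted p in limma of 0.0549. ATP1 was at 0.68 ± 0.18, with an interval from 0.29 to 1.07 and an adjusted p of 0.0588, and NDE1 at 0.71 ± 0.21, with an interval from 0.27 to 1.14 and an adjusted p of 0.074. For each of the 3 genes, picked here for a low p-value, the arrays of the strains did not overlap. How often this held over all genes was not counted, either here or where single genes are described. For COX5B, mutant arrays 1 and 2 read 0.03 and -0.28, and arrays 3 and 4 read 0.54 and 0.79. Arrays 1 and 2 ran low in that group for many genes, as given further on. In 26 alternatives COX5B passed in 6 and ATP1 in 4. COX5B ran from -1.33 to -0.83 in them (limma adjusted p from 0.0364 to 0.174) and ATP1 from 0.59 to 0.77 (adjusted p from 0.0343 to 0.203). The interval of QCR10 ran from -1.89 to -0.10 (limma adjusted p = 0.202). CIT3 was at -0.59 ± 0.24 (limma adjusted p = 0.196) and QCR9 at -0.59 ± 0.25 (adjusted p = 0.217).

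The lowest p-values at 10 min belonged to COR1, ATP2 and MDH1, which were higher in KOH in wild type. COR1 was at -0.58 ± 0.19, with a 95% confidence interval from -0.97 to -0.19 (limma adjusted p = 0.215), ATP2 at -0.70 ± 0.33 (adjusted p = 0.465) and MDH1 at -0.38 ± 0.17 (adjusted p = 0.459). For CIT1 the difference was -0.26 ± 0.25 with an interval from -0.79 to 0.27, and for NDI1 -0.33 ± 0.21 with an interval from -0.77 to 0.10. For SDH4 it was 0.01 ± 0.25, with an interval from -0.53 to 0.54. NDE2 at 30 min differed by -0.19 ± 0.27, with an interval from -0.77 to 0.39, and SDH1 by -0.04 ± 0.21, from -0.49 to 0.40. At 10 min 4 genes were higher and 1 lower in both strains, or 16% and 4%, beside 12.9% and 15.5% of all genes tested in both. The 4 higher and 4 lower in both at 30 min were 10.8% each, beside 12.6% and 12.6%. No gene of the 47 was called higher in the one strain and lower in the other at the same time, as were 0.0424% and 0.352% of all genes.

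**Figure D5:**
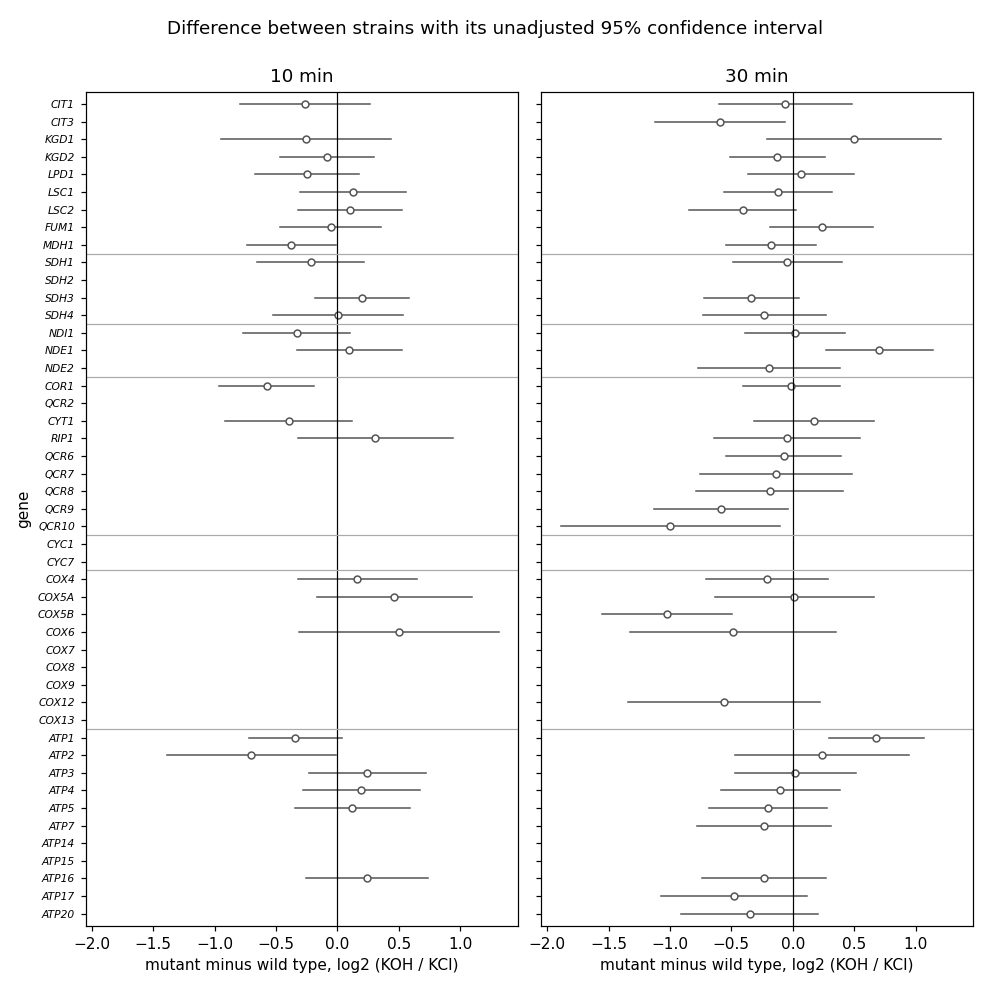
Difference between mutant and wild type in the log2 ratio of KOH over KCl (horizontal axis) for each gene tested at 10 and at 30 min (vertical axis, by complex), with its unadjusted 95% confidence interval. All points are open because no gene passed the test after adjustment. The intervals that do not include 0 are those of COR1, ATP2 and MDH1 at 10 min and of COX5B, ATP1, NDE1, CIT3, QCR9 and QCR10 at 30 min.

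In the mutant at 30 min, arrays 1 and 2 gave lower values than arrays 3 and 4. Both were below both of the others in 24 of the 32 genes with 4 values, or 75%, and in 45% of all genes. The median gap was -0.56 for the 32 genes and -0.21 for all genes. In the other groups this order held for 5% to 23.5% of the genes with 4 values and 11.7% to 31.7% of all genes. The reverse order held there for 20% to 40%, the highest in the mutant at 10 min, and for 23.6% to 30.4% of all genes. Arrays 1 and 2 of the mutant at 30 min carry KOH in different dyes. By the leading digits of their titles they fall in the same slide series as array 3, a grouping that the labels do not explain. The part of this gap in the mutant's lower median at 30 min was not tested.

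Genes around the pathway were read from lists of related functions. Further genes of the cycle and of pyruvate entry also changed. PYC1, a pyruvate carboxylase that supplies oxaloacetate, rose in all 4 groups by 1.99 ± 0.16, 2.47 ± 0.16, 2.20 ± 0.16 and 2.39 ± 0.16. MAE1, the malic enzyme, fell by 0.87 ± 0.14 and 0.92 ± 0.14 at 10 min. IDH2, a subunit of isocitrate dehydrogenase, gained 1.09 ± 0.29 in wild type and 1.11 ± 0.29 in the mutant between the times, the opposite direction to MDH1 and SDH1. IDH1, the other subunit, was higher by 1.01 ± 0.23 in the mutant at 30 min (n = 3), and IDH2 by 0.95 ± 0.21 in wild type.

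Of 8 isozyme and glyoxylate cycle genes 3 of 6, 1 of 4, 4 of 7 and 3 of 7 tested were higher in the groups in the same order. None was lower, beside 17.9% to 20.9% of all genes. The higher genes were 50%, 25%, 57.1% and 42.9% of those tested, beside 21.8%, 18.6%, 19.2% and 22% of all genes. Besides CIT2 and MDH2, the cytosolic malate dehydrogenase, they included ICL1, isocitrate lyase, at 1.62 ± 0.31 in wild type at 10 min (n = 3) and IDP1, the mitochondrial NADP-dependent isocitrate dehydrogenase, at 1.09 ± 0.15 and 0.94 ± 0.15 at 30 min. MDH2 rose by 1.47 ± 0.13 in wild type at 10 min (n = 3) and by 0.99 ± 0.12 in wild type and 0.44 ± 0.11 in the mutant at 30 min. Of 12 genes of coenzyme Q synthesis and other quinone or cytochrome c reductases, 4 of 6, 2 of 6, 3 of 10 and 2 of 11 tested were higher. These are 66.7%, 33.3%, 30% and 18.2%, beside the same shares of all genes. COQ1, which makes the side chain of coenzyme Q, was the only one lower, by -0.34 ± 0.12 in the mutant at 30 min. It is 9.09% of the genes tested there, beside 19.1% of all genes. DLD1, a D-lactate dehydrogenase that reduces cytochrome c, rose by 1.43 ± 0.20, 1.78 ± 0.20, 2.13 ± 0.20 and 2.24 ± 0.21. GUT2, the mitochondrial glycerol phosphate dehydrogenase that feeds the quinone pool, rose by 1.49 ± 0.22 and 1.29 ± 0.22 at 10 min and lost 1.26 ± 0.30 of its ratio by 30 min in wild type, as NDI1 did.

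Of 30 assembly factors of complexes II to V, 29 were on the array. Of 12, 15, 20 and 22 tested, 1, 3, 3 and 1 were higher and 2, 1, 4 and 7 lower. The higher shares were 8.33%, 20%, 15% and 4.55%, beside 21.8%, 18.6%, 19.2% and 22% of all genes. The lower shares were 16.7%, 6.67%, 20% and 31.8%, beside 20.9%, 17.9%, 18.8% and 19.1%. The 7 lower in the mutant at 30 min were led by CBP6 (-1.28 ± 0.18), needed for cytochrome b translation, and COX18 (-1.04 ± 0.15, n = 3), which inserts the mitochondrially encoded subunit COX2. In wild type at 30 min SHY1 (-0.80 ± 0.17), a complex IV assembly factor, was lower, and SDH8 (1.42 ± 0.22), a complex II assembly factor, was higher. SDH8 was also higher in the mutant, by 0.90 ± 0.22. Of 10 other subunits, paralogs and inhibitors, 7 were on the array and at most 5 tested. STF2, which acts on the inhibitor of ATP synthase, read 1.30, 2.07, 3.16 and 2.60 in wild type at 10 min and 0, 0.85 and 0.50 on arrays 2 to 4 of the mutant, without overlap. It rose by 2.28 ± 0.21 in wild type (limma adjusted p = 2.92e-07), stood at 0.41 ± 0.24 in the mutant, and the difference of -1.87 ± 0.32 passed (adjusted p = 0.0032). It was the single gene of these lists whose strain difference did. YJL045W, a paralog of SDH1, was lower by -0.84 ± 0.24 and -1.37 ± 0.24 at 30 min, where SDH1 was lower too.

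Of 13 mitochondrial carriers, 1, 2, 2 and 2 were higher and 2, 1, 3 and 1 lower of 8, 8, 9 and 10 tested. That is 12.5% to 25% higher and 10% to 33.3% lower, beside 18.6% to 22% and 17.9% to 20.9% of all genes. MPC2, a subunit of the pyruvate carrier, rose by 1.27 ± 0.23 in the mutant at 10 min and by 1.20 ± 0.24 and 1.28 ± 0.24 at 30 min. OAC1, an oxaloacetate carrier, fell by 0.97 ± 0.14 (n = 3) and 0.79 ± 0.12 at 10 min and regained 0.96 ± 0.19 and 1.00 ± 0.17 by 30 min. Of 6 HAP and haem-dependent regulators 3, 3, 4 and 4 were tested. HAP4, the activating subunit of the Hap complex, had 1 value per group, on array 4: 0.38, -0.45, -0.09 and -0.34, and was not tested. ROX1, the repressor of hypoxic genes such as COX5B and CYC7, stood at 0.24 ± 0.14 in wild type and rose by 0.88 ± 0.14 in the mutant at 30 min (limma adjusted p = 0.000149). Its strain difference there was 0.65 ± 0.20 (adjusted p = 0.0861). HAP2 was higher by 0.66 ± 0.20 in the mutant at 10 min (adjusted p = 0.0144).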

How the data were processed

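The deposited table holds log ratios, 1 for each feature on each of 16 arrays. The deposited values were read as log2, although neither the base nor the direction is stated in the labels, and the deposited array medians ran from -0.285 to 0.2615. Per the labels, cDNA was primed with oligo(dT) and labelled indirectly with Cy3 or Cy5, with 2 biological replicates per condition and dye swaps. For the scanner, the normalization and the filter that left cells empty, nothing is given in the sources used here. All 47 members were named through the RefSeq gene table, as were 5675 of the 6174 features with a locus tag there. The members and gene lists were chosen with earlier results of these data known.

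Values were centred by array on the median. The fit used limma 3.58.1 (R 4.3.3) on all 16 arrays together, with a mean for each group and a dye term. Genes with values on at least 3 arrays of each compared group in both dyes were tested, two-sided. Adjusted p-values are Benjamini-Hochberg over all genes tested, with a threshold of 0.05, and errors after ± are standard errors with n = 4 arrays unless stated. The 8 comparisons were KOH against KCl in each group, the difference of mutant from wild type at either time, and 30 minus 10 min in each strain. On simulated data 86% to 94% of changes of 1 log2 unit were recovered in the KOH comparisons and 70% to 76% in the differences. Between 8 and 16 unchanged genes were called per comparison. The simulated noise was independent between arrays, so shared extracts were not modelled. Fewer genes were changed than passed in the KOH comparisons, but more than passed between strains. The recovery in the data may be lower, also between strains. All members could be named, with array values for the 2 largest changes that passed per complex and comparison and for the isoform pairs and NADH dehydrogenases, and from each list at most the 2 largest that passed, plus HAP4, MSN2 and MSN4. Array values of further members and of STF2, and the changes of MDH2, were added after their values were seen. Alternatives changed the dye term, centring, scale and quantile normalization, array minimum, groups fitted, slide series and fold minimum, left out each array, and averaged arrays of opposite dye in 16 ways. The slide series was read from the leading digits of the array titles, which the labels do not explain. The number of arrays limits the precision. Promoter and protein sequences were not analysed here. For the list of further cycle and pyruvate entry genes, the counts and 1 gene's values are not reported here.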

Additional observations from a re-analysis of the deposited data

Results flagged for a closer look

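Among 111 groups of 4 values, 2 held an array far from the other 3, where chance alone gives about 1 in 20 groups. KGD1 in wild type at 10 min stood at 1.32 on array 3 against 0.52 to 0.63 on the others, and KGD2 in the mutant at 10 min at 0.71 on array 1 against 0.11 to 0.20.

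The ratio differed between 30 and 10 min in wild type, by the test of the difference in limma, for CYT1 (-1.26), SDH1 (-1.26), COR1 (-1.21), NDI1 (-1.19), MDH1 (-0.94), SDH4 (-0.80), ATP1 (-0.74) and NDE1 (-0.72). In the mutant it differed for SDH1 (-1.09), SDH4 (-1.04), QCR8 (-0.98), NDI1 (-0.85), MDH1 (-0.74) and COR1 (-0.64).

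In 5 cases every measured array of a group lay on the other side of 0 from every array of the group it was set against, without a call. With the genes whose difference was called, this held for 6.45% and 2.38% of the genes with 2 or more values between strains at 10 and 30 min, beside 2.6% and 2.02% of all genes, and for 12.9% and 2.86% between the times in wild type and mutant, beside 5.02% and 4.69%. For COX5A the mutant stood 0.46 above wild type at 10 min, and the test of the difference did not pass (limma adjusted p = 0.637). For ATP1 the mutant stood 0.68 above wild type at 30 min (limma adjusted p = 0.0588). For SDH2, with 2 values in each group, the mutant stood at -1.18 from wild type at 10 min, and wild type at 30 min stood at -1.92 from wild type at 10 min. For QCR9, with 2 values at 10 min, the mutant at 30 min stood at -0.81 from 10 min. The differences of SDH2 and QCR9 were not tested, since too few arrays held a value.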

How the results depend on the processing

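No paired analysis was possible because the labels give the arrays no replicate numbers and do not say which share an extract. Of 6354 single values recomputed under the alternatives, 6205 kept their side of the threshold, 99 lost a call, 50 gained one and none changed sign while called. Of 58 calls, 34 held in every alternative that tested them, fold minimum and averaged arrays aside. Of 232 counts of genes that passed, 203 stayed within 1.5 times. A 2-fold minimum left 2 of 12 calls in wild type and 0 of 7 in the mutant at 10 min, 4 of 12 and 5 of 13 at 30 min, and 4 of 8 and 2 of 6 between the times. Averaging arrays of opposite dye gave at lowest 7, 2 and 3 in wild type at 10 min and the mutant at 10 and 30 min, and 4 and 1 between the times, and at highest 1 and 3 between strains at 10 and 30 min. Centring on the genes measured on every array gave 11 in the mutant at 10 min and 1 between strains at 30 min, and moved the median of all genes by 0.107 in wild type at 10 min, where 13 were then higher and 1 lower. Requiring all 4 arrays gave 3 in the mutant at 10 min, 3 between the times in the mutant and 2 between strains at 30 min, with fewer genes tested. The larger slide series alone, with 3 arrays a group, gave 3, 8 and 3 in the mutant at 10 min, at 30 min and between the times. Fitting only the group compared gave 7 in the mutant at 30 min, and the deposited values and quantile normalization gave 1 and 2 between strains at 30 min. Leaving out each array gave 9 to 12 and 3 to 8 at 10 min and 10 to 12 and 9 to 14 at 30 min in wild type and mutant, 6 to 9 and 3 to 7 between the times, and 0 and 0 to 3 between strains. Beyond fewer genes or arrays, the cause of these shifts was not tested.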
